A study of Mus musculus with 12 samples.

Results

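The integrin genes Itgav, Itga5, Itgb3, Itgb5, Itgb1, Itga3 and Itga6 were followed in mouse embryonic stem cells (ESCs) that lack a factor of microRNA production. They were taken by gene symbol from tables of exonic and intronic reads. All 7 were found in each of the 4 tables, among 18412 genes per table. They had been proposed with their own knockout and wild-type values in view, so those values are given here as a description. Where fits called any of the 7, the calls are printed as a description too, and nothing is read from them. PolyA RNA had been sequenced, with the strand kept, in 12 libraries of cells grown on gelatin in serum with leukaemia inhibitory factor. The DicerKO group (cell line Dicer1-/-, 3 libraries) was set against the wild-type line TFC (3 libraries). The Dgcr8KO group (cell line Dgcr8-/-, 3 libraries) was set against the wild-type line V6.5 (3 libraries). By its title, the study asks about Argonaute loss and the Tgf-β/Smad network. How each knockout line was made, whether it is 1 clone and how it relates to its wild-type line are not given in the sources used here, so loss of the factor and other differences between a pair of lines cannot be told apart.

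Integrins are receptors in the cell membrane made of an alpha and a beta subunit, which hold cells to the extracellular matrix and link it through talin and kindlin to the actin skeleton. The beta subunit Itgb1 pairs with many alpha subunits: with Itga5 it forms the classical fibronectin receptor, and with Itga3 or Itga6 receptors for laminin. Itgav pairs with Itgb1, Itgb3 or Itgb5 into receptors that recognise the arginine-glycine-aspartate (RGD) motif of vitronectin, fibronectin and the latent form of Tgf-β. Dicer1 and Dgcr8 act in successive steps of microRNA production, and microRNAs lower the level of messenger RNAs that match their seed.

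Values are normalised reads, which are the authors' reads divided by a size factor for each library. The deposited tables list group means, from which the reads of each library were solved. The 3 libraries of a group, which could not be tied to the labels' replicate numbers, were lettered A, B and C, with the letter A for the 1 that correlated least with the others of its group. The A libraries of the 4 groups deviated from their group means together (r across genes 0.72 to 0.80), so differences within A and within B and C are given beside the results that they touch. Recovered depth was 5770815 to 31495700 exonic and 559057 to 5597604 intronic reads per library. Exonic reads of the targeted gene Dicer1 were 1333.5, 1762.9 and 1674.5 in DicerKO libraries A, B and C, against 2943.8, 3277.8 and 3496.4 in TFC. Those of Dgcr8 were 342.1, 955.5 and 1113.6 in Dgcr8KO, against 1929.8, 2707.1 and 2947.1 in V6.5. Both were lower in every library of their own knockout, but such totals cover the whole transcript and, with the deletion not described, do not check a null allele. The pluripotency factor Pou5f1 stood at 8850.7 reads or more in every knockout library and at 4459.7 or more in every wild-type library. Its lowest values were those of V6.5, with 5659.2 in library B and 4459.7 in C, against 18637.4 in A. The pluripotency factors Sox2 (2614.6 and 6818.7, against 14127.8) and Esrrb (2497.6 and 2213.9, against 9402.5) were lower there too. Pou5f1 was also highest in A in Dgcr8KO (28115.4, against 9960.9 and 8850.7). How far each library kept the ESC state was not tested. In bulk RNA, fewer cells of a type and less RNA per cell cannot be told apart.

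Since both deleted genes act in microRNA production (microRNAs were not measured here), the seed families of ESC microRNAs were set beside the 3′ untranslated regions (3′ UTRs) of the 7 genes. The seed (bases 2 to 8) is shown in capitals, 1 microRNA per seed, with sequences from RefSeq on GRCm38.p6. The first 3 belong to families abundant in ESCs, and the others were shown for comparison.
miR-294-3p: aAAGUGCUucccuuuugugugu
miR-17-5p: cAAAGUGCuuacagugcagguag
miR-92a-3p: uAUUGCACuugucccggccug
let-7a-5p: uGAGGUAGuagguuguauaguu
miR-29a-3p: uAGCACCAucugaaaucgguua
miR-31-5p: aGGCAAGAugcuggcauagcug
The seed of miR-294-3p is shared by miR-291a-3p and miR-295-3p, that of miR-17-5p by miR-20a-5p, and that of miR-92a-3p by miR-25-3p. Of 12 microRNAs looked up, 10 had a mature sequence, and miR-302a-3p and miR-124-3p are named only.

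A match of 7 bases to the miR-92a-3p seed was found 2 times in the longest annotated 3′ UTR of Itgav (3581 bases), 1 time in that of Itga5 (983 bases) and 1 time in that of Itgb3 (3331 bases). Of 17749 genes with an annotated 3′ UTR, 6.68% hold that match. The miR-294-3p match was found in Itgb3 alone among the 7, against 15.2% of all genes, and the miR-17-5p match in 0 of the 7, against 12.3% of all genes. These 5 sites are shown with the match in capitals, read in the direction of the messenger RNA (GRCm38, GENCODE M21), because they are the matches to ESC families that the 7 genes hold.
Itgav, chr2:83804756-83804777, plus strand: ctatttttGTGCAATtacatca
Itgav, chr2:83806407-83806428, plus strand: gttcttaaGTGCAATataacaa
Itga5, chr15:103344309-103344330, minus strand: tgttgcaaGTGCAATaaacccc
Itgb3, chr11:104668590-104668611, plus strand: ggccacaaGTGCAATtttattt
Itgb3, chr11:104669704-104669725, plus strand: tctgatgtAGCACTTagttttt
The other seeds matched Itga5 (miR-29a-3p and miR-31-5p, 1 site each), Itgb1 (miR-29a-3p, 1 site) and Itgb3 (let-7a-5p and miR-29a-3p, 1 site each). The 3′ UTRs of Itga3 (1321 bases), Itga6 (1310 bases) and Itgb5 (586 bases) held a match to 0 of the 6 seeds. Long 3′ UTRs hold more matches by their length alone: that of Itgav is longer than 91.1% and that of Itgb3 longer than 89.3% of all genes, where the median is 985 bases. A match is a stretch of letters and not a measured site of binding.

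Itgav, the alpha subunit of the vitronectin receptors (GRCm38 chromosome 2, 83724397 to 83806916, plus strand; all positions are of this build), was higher in DicerKO and reached a level 4.62 times that of TFC. It had 4010.8, 4634.4 and 3622.6 exonic reads in DicerKO libraries A, B and C, against 961.8, 935.4 and 756.5 in TFC. The groups lay far apart, and library A stood inside the range of B and C in the knockout. Its log2 fold change was 2.21 (SE 0.23), and the difference was 2.06 inside library set A and 2.28 inside B and C. For the Dgcr8 pair the reads were 2205.1, 4281.3 and 4383.4 in Dgcr8KO libraries A, B and C, against 987.7, 2474.0 and 2591.7 in V6.5. Here the groups overlapped, because the A library was low in both, yet each knockout library was above the wild-type library of its letter. The log2 fold change was 0.90 (SE 0.46), with 1.16 within A and 0.77 within B and C.

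Itga5, the alpha subunit of the fibronectin receptor (chromosome 15, 103344286 to 103366763, minus strand), was higher on average in both knockout lines. It had 3162.3, 1379.0 and 1292.1 reads in DicerKO libraries A, B and C, against 1056.5, 579.0 and 985.2 in TFC. The knockout stood above wild type in every library, with the widest gap in A (log2 difference 1.58 within A, 0.82 within B and C; fold change over all 3 1.07, SE 0.41). Its Dgcr8KO libraries had 3054.5, 1382.0 and 1221.6 reads, against 1386.4, 896.3 and 820.9 in V6.5. The groups overlapped there only because library A of V6.5 was above libraries B and C of the knockout. The log2 fold change was 0.78 (SE 0.41).

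Itgb3 (chromosome 11, 104608000 to 104670476, plus strand), a partner of Itgav in vitronectin receptors, was the lowest of the 7. It had 524.6, 152.2 and 207.2 reads in DicerKO libraries A, B and C, against 148.7, 60 and 46 in TFC. Library A was the highest in both groups, and the groups did not overlap, although knockout library B was close to wild-type library A. The log2 fold change was 1.76 (SE 0.81), with 1.81 within A and 1.74 within B and C. In Dgcr8KO it had 262.0, 174.0 and 201.5 reads, against 147.3, 132.5 and 178.5 in V6.5, which overlapped (log2 fold change 0.46, SE 0.43).

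Itgb5 (chromosome 16, 33829665 to 33949338, plus strand), the other vitronectin-receptor beta subunit, differed little in the Dicer pair. It had 1727.1, 814.4 and 962.8 reads in DicerKO libraries A, B and C, against 1366.3, 832.9 and 740.7 in TFC. The groups overlapped (log2 fold change 0.23, SE 0.37), and without knockout library A the sign turned (-0.09). Its Dgcr8KO libraries had 2210.9, 480.1 and 597.2 reads, against 1020.7, 432.7 and 315.6 in V6.5. Library A was several times above B and C in both groups of that pair, and the groups overlapped (0.73, SE 0.67).

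Itgb1, the common beta subunit (chromosome 8, 128685654 to 128733200, plus strand), was the most abundant of the 7 in every group and showed no separation in either pair. It had 12445.2, 21894.4 and 21189.9 reads in DicerKO libraries A, B and C, against 9708.8, 19560.6 and 15715.8 in TFC (log2 fold change 0.32, SE 0.36). In Dgcr8KO it had 7391.2, 14817.0 and 16392.8 reads, against 6911.6, 22481.8 and 26318.3 in V6.5 (-0.40, SE 0.56). Library A was the lowest of its group in all 4 groups. In the Dgcr8 pair the sign depended on the library set, with 0.10 within A and -0.64 within B and C.

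Itga3, a laminin-receptor alpha subunit (chromosome 11, 95044474 to 95076801, minus strand), was lower in Dgcr8KO and, like Itgb1, had mean differences of opposite sign in the Dicer and Dgcr8 pairs. It had 1662.2, 565.6 and 409.3 reads in Dgcr8KO libraries A, B and C, against 3392.3, 3074.6 and 1855.3 in V6.5. Every knockout library was below every wild-type library, with a log2 fold change of -1.88 (SE 0.53), and the gap was wider within B and C (-2.31) than within A (-1.03). In the Dicer pair it had 1836.4, 654.3 and 1188.5 reads in DicerKO, against 1567.4, 297.6 and 542.2 in TFC. Those groups overlapped widely (0.83, SE 0.61), with library A the highest in both. Itga3 is an epithelial integrin, and some marker lists of other cell types were lower with it. The summed reads of 12 trophectoderm markers were 1457 to 2828 in Dgcr8KO, against 10977 to 14672 in V6.5, with 9 of 11 tested lower. Those of 15 fibroblast markers were 532.4 to 1462 in Dgcr8KO, against 5843 to 13639 in V6.5, with 11 of 12 tested lower. Primitive endoderm markers were lower in 7 of 9 tested and mesoderm markers in 4 of 5. Neural markers went the other way in 5 of 7 tested (median log2 fold change 1.07), and so did pluripotency markers in 7 of 8 (0.98). The part of these markers in the Itga3 difference was not tested.

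Itga6, the other laminin-receptor alpha subunit (chromosome 2, 71745616 to 71858416, plus strand), was higher in DicerKO by a small amount. It had 6110.5, 8713.4 and 8857.4 reads in DicerKO libraries A, B and C, against 4415.5, 5016.1 and 5154.7 in TFC. All 3 knockout libraries were above all 3 wild-type libraries (log2 fold change 0.68, SE 0.24). In Dgcr8KO it had 4563.7, 5960.1 and 7341.4 reads, against 4174.4, 5726.4 and 6960.5 in V6.5. Those ranges covered each other (0.09, SE 0.31), and the sign turned without Dgcr8KO library C or V6.5 library A.

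**Figure D1:**
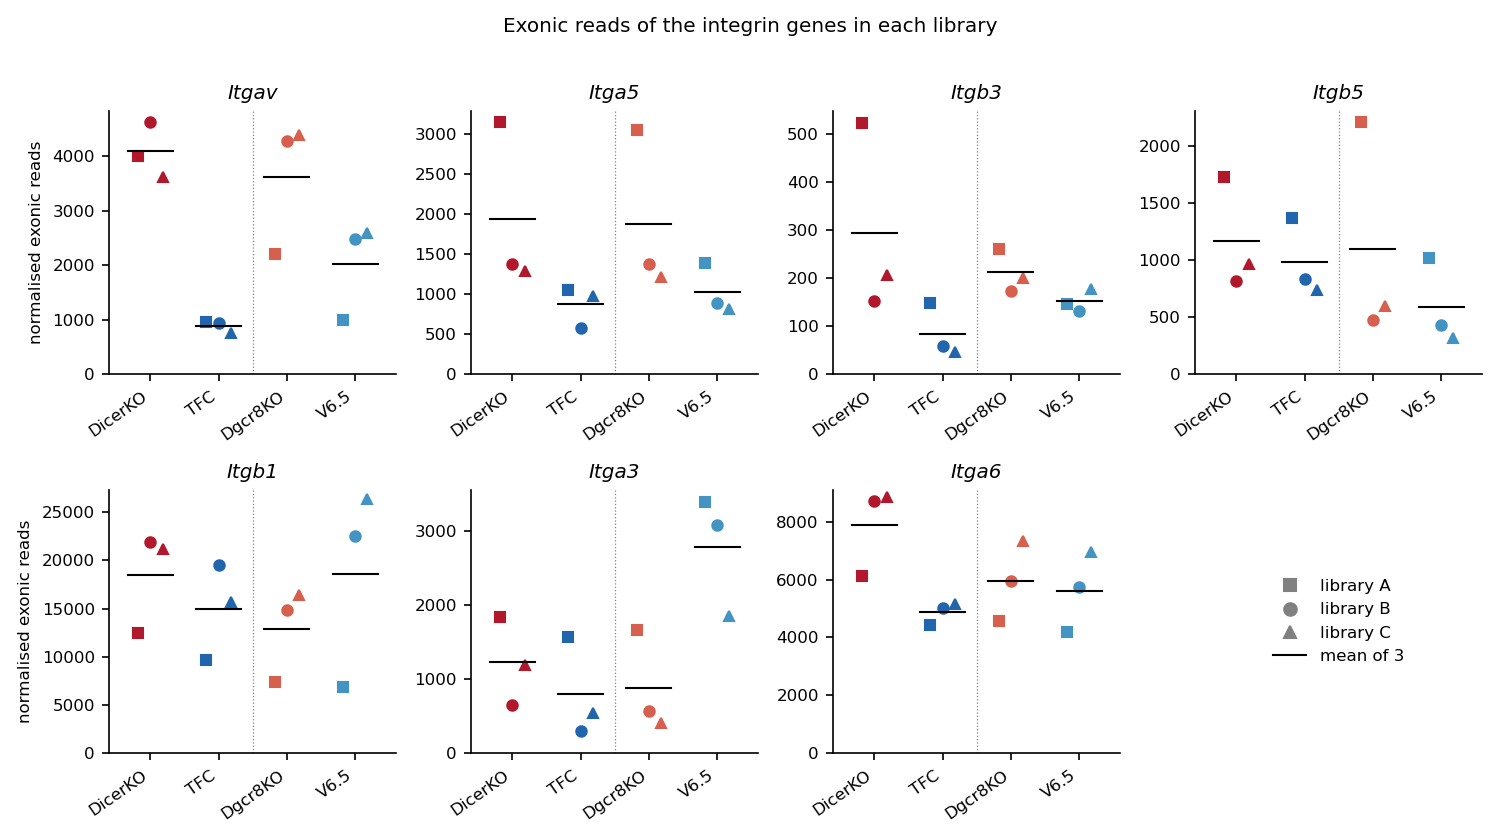
Normalised exonic reads (vertical axis, linear, from 0) of the 7 integrin genes in each library, with squares, circles and triangles for libraries A, B and C and a line for the mean of 3. The Dicer and Dgcr8 pairs were scaled separately and are parted by a dotted line; Itgav in DicerKO (3622.6 to 4634.4) lies clear of TFC (756.5 to 961.8), and Itga3 in Dgcr8KO (409.3 to 1662.2) lies below V6.5 (1855.3 to 3392.3).

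Over the 7 genes, all 7 had a higher mean in DicerKO than in TFC, with a median log2 fold change of 0.83, against -0.01 over all 13174 genes tested. In 4 of them (Itgav, Itga5, Itga6 and Itgb3) the groups did not overlap, all with the knockout above, while 11.7% of the genes tested did so with the knockout above, 9.64% with it below and 21.3% in either direction. By limma with Benjamini-Hochberg adjustment over all genes (adjusted p under 0.05), 1 of the 7 was called, Itgav, higher in the knockout, where 1.02% of the genes tested were called higher and 1.24% in either direction. In the Dgcr8 pair 5 had a higher and 2 a lower mean in the knockout (median 0.46, against -0.08 over 12752 genes). There 1, Itga3, did not overlap, with the knockout below, as did 11.9% of the genes tested. limma called 0 of the 7 in Dgcr8 exons, where 1.25% of the genes tested were called in either direction. At an unadjusted p under 0.05 there was 1 of 7, against 16.2% of the genes tested, and limma-voom called 0. The genes were chosen on these values, so nothing is read from these counts.

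With a term in the model for the library set (A against B and C), limma called 3 of the 7 higher in DicerKO, and 0 lower, with 7.26% of the genes tested called higher and 4.96% lower in that fit. In Dgcr8KO it called 2 higher, where 8.34% of the genes tested were higher, and 1 lower, where 8.61% were lower (16.9% in either direction). Itgav was called in Dicer exons under 9 of 15 alternatives and not without DicerKO library B or C or TFC library B or C. Without DicerKO library B or C or TFC library C, 0 of all genes tested were called. With libraries B and C only Itgav was not called either, in a fit that called 61 of all genes tested. The log2 fold change of Itgav ranged from 2.10 to 2.29 over the alternatives, so the value moved little while the call did. The members were chosen on these values, so nothing is read from their calls.

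**Figure D2:**
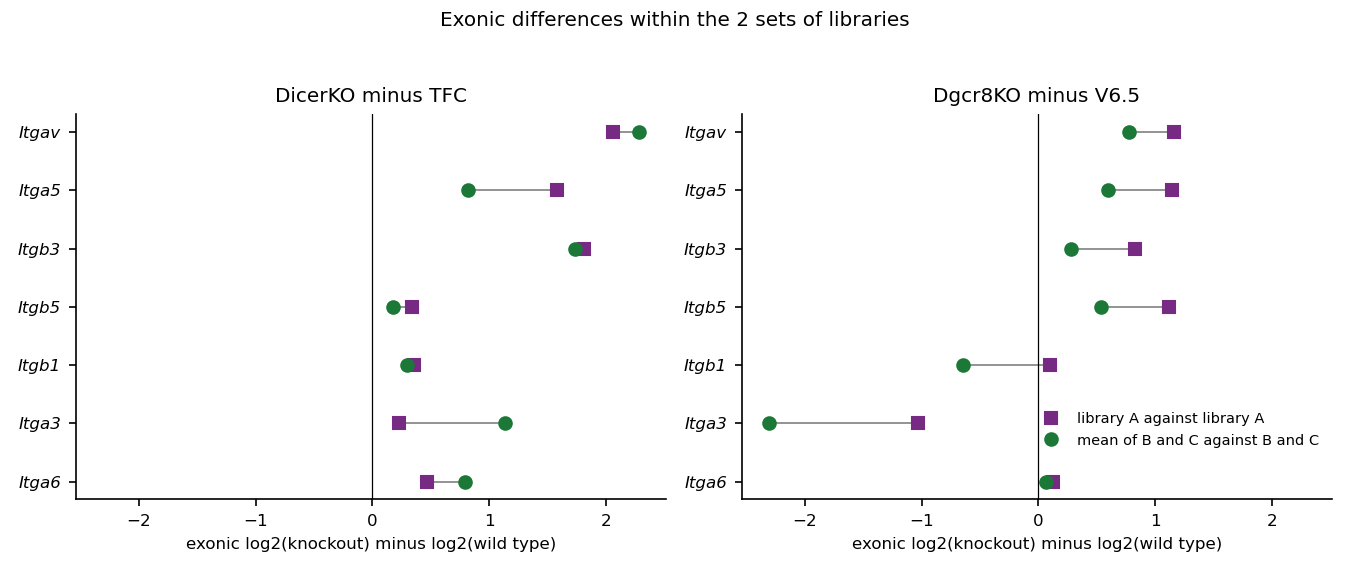
Difference in log2 exonic reads between knockout and wild type within the A libraries (squares) and between the means of libraries B and C (circles), for each integrin gene. In the Dicer pair all differences lie above 0, with Itgav at 2.06 and 2.28; in the Dgcr8 pair Itga3 lies at -1.03 and -2.31, and Itgb1 lies on either side of 0.

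Intronic reads come from unspliced RNA and were far fewer, from 0 to 780.7 normalised reads per library for these genes. Itgav had 157.9, 173.4 and 141.1 intronic reads in DicerKO libraries A, B and C, against 51.3, 0 and 14 in TFC. The ratio of means was 7.24, and the groups did not overlap. Because library B of TFC was at 0, the log2 fold change of 4.10 carried an SE of 1.53 and ranged from 2.50 to 5.35 over the alternatives. In Dgcr8KO it had 75.1, 143.3 and 49.8 intronic reads, against 23.7, 102.9 and 37.4 in V6.5, which overlapped (0.83, SE 0.66).

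Itga5 had 179.3, 226.5 and 186.3 intronic reads in DicerKO libraries A, B and C, against 110.7, 103.4 and 111.8 in TFC, so the knockout was higher in every library (log2 fold change 0.85, SE 0.50). In Dgcr8KO it had 77.7, 111.8 and 123.3, against 29.6, 85.1 and 121.0 in V6.5. These overlapped (0.59, SE 0.56). Itgb5 showed the reverse arrangement over the pairs. Its intronic reads were 230.5, 228.8 and 195.1 in Dgcr8KO, against 82.9, 49.5 and 150.9 in V6.5, and did not overlap (1.34, SE 0.43). In DicerKO they were 295.1, 71.7 and 275.2, against 222.0, 89.0 and 287.9 in TFC, with no separation (0.01, SE 0.60).

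Itga3 was lower in introns of Dgcr8KO, as it was in exons. It had 71.7, 59.1 and 67.2 intronic reads in Dgcr8KO libraries A, B and C, against 245.8, 387.6 and 223.3 in V6.5. The groups did not overlap, and the log2 fold change was -2.06 (SE 0.38), at -1.76 for library A alone and -2.21 for B and C. In DicerKO it had 126.5, 167.6 and 146.8, against 157.5, 137.9 and 39.1 in TFC, which overlapped (0.62, SE 0.67). Trophectoderm markers were lower in introns of the Dgcr8 pair too, at summed reads of 44.2 to 155.4 in Dgcr8KO, against 266.5 to 403.1 in V6.5, and their part in the Itga3 value was not tested.

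Itgb1 had 141.7, 164.6 and 162.7 intronic reads in Dgcr8KO, against 198.4, 325.7 and 399.2 in V6.5. The knockout was lower in every library (log2 fold change -0.92, SE 0.35), unlike in exons, where the groups overlapped. In DicerKO it had 331.6, 388.4 and 302.0, against 371.4, 422.6 and 314.4 in TFC (-0.11, SE 0.32). Itga6 had 481.4, 432.3 and 663.3 in DicerKO, against 396.8, 780.7 and 306.1 in TFC (0.18, SE 0.35), and 249.3, 259.2 and 236.2 in Dgcr8KO, against 162.9, 383.7 and 334.3 in V6.5 (-0.15, SE 0.36). Both of its pairs overlapped. Itgb3 was under the minimum mean of 10 reads and was not tested in introns, with 0 to 20.8 reads in any library.

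**Figure D3:**
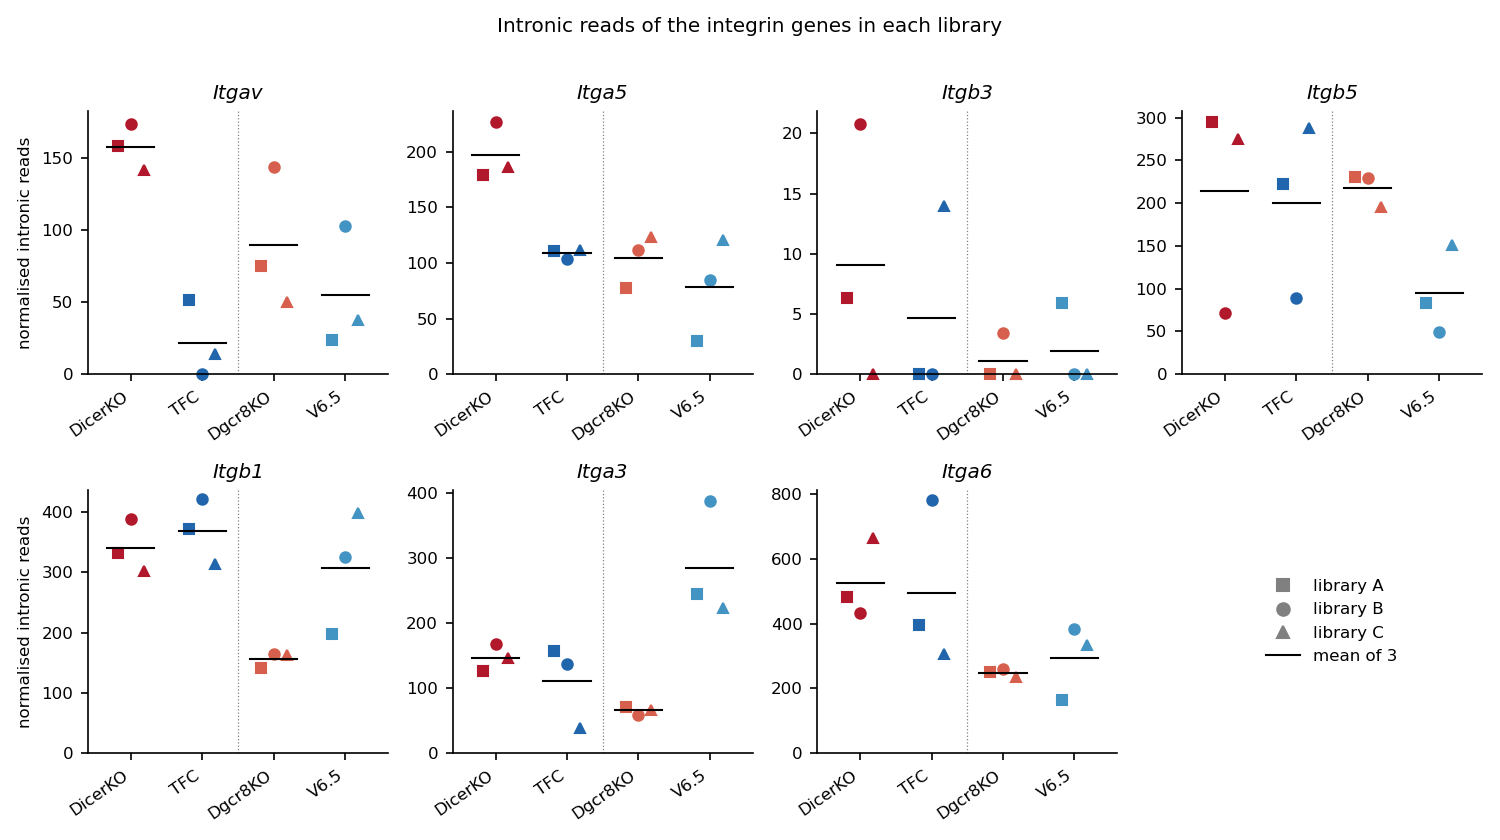
Normalised intronic reads (vertical axis, linear, from 0) of the 7 integrin genes in each library, marked as in the plot of exonic reads. Itgav in DicerKO (141.1 to 173.4) lies above TFC (0 to 51.3), Itga3 in Dgcr8KO (59.1 to 71.7) lies below V6.5 (223.3 to 387.6), and Itgb3 stays at 20.8 or under.

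Of the 6 members tested in introns, limma called 0 in the Dicer pair, where 0.353% of the genes tested were called in either direction, 0.275% higher and 0.0774% lower. At an unadjusted p under 0.05 there was 1 of 6, against 10.1% of the genes tested, and limma-voom called 0. In the Dgcr8 pair 1 of 6 was called, Itga3, lower in the knockout, where 0.409% of the genes tested were called lower, 1.11% higher and 1.52% in either direction. It was called under 11 of 15 alternatives, and not without Dgcr8KO library B or V6.5 library B or C. Groups did not overlap for 2 members in Dicer introns (Itgav and Itga5, knockout above), where 9.27% of the genes tested had the knockout above and 17.3% did not overlap in either direction. In Dgcr8 introns they did not overlap for 1 with the knockout above (Itgb5; 9.61% of the genes tested) and 2 with the knockout below (Itga3 and Itgb1; 10.1% of the genes tested), where 19.7% did not overlap in either direction. With the library-set term 0 members were called higher and 1 lower in Dgcr8 introns. There 2.61% of the genes tested were called higher, 1.59% lower and 4.2% in either direction. The members were proposed with these values in view, so nothing is read from these counts either.

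Exonic and intronic differences lay on the same side of 0 in most members. In the Dgcr8 pair Itga3 differed by -1.88 in exons and -2.06 in introns, and Itgav by 0.90 and 0.83, so that the exonic difference minus the intronic one, fitted in 1 model, was 0.14 (SE 0.57) for Itga3 and 0.03 (SE 0.66) for Itgav. In the Dicer pair the same quantity was -1.89 (SE 1.45) for Itgav, 0.23 (SE 0.58) for Itga5 and 0.51 (SE 0.55) for Itga6. Itgb1, with exonic differences above the intronic ones in both pairs, had 0.44 (SE 0.62) in Dicer and 0.49 (SE 0.59) in Dgcr8, and Itgb5 had 0.22 (SE 0.66) and -0.65 (SE 0.84). Each of these fitted values except that of Itgav in Dicer was smaller than its SE. limma called 0 of 10988 genes in Dicer and 0 of 10364 in Dgcr8 for exonic minus intronic change (0% each), against 389 and 590 at an unadjusted p under 0.05, and 0 in each with the library-set term.

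**Figure D4:**
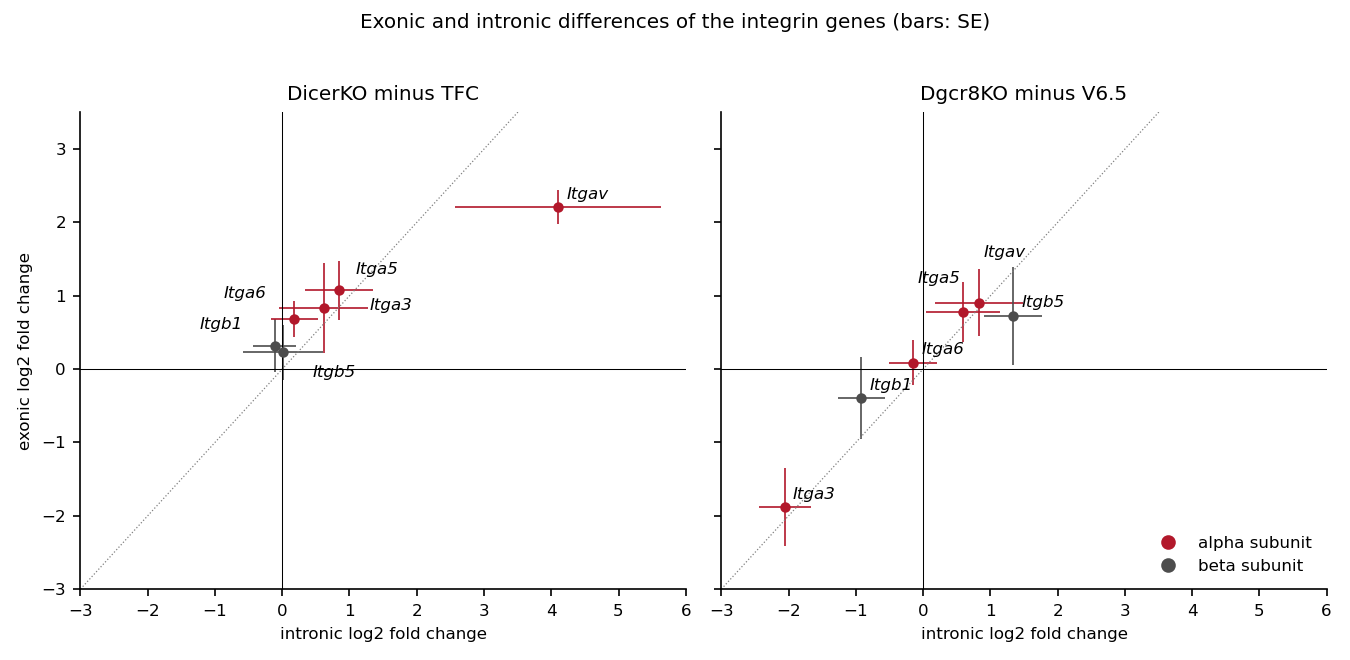
Exonic log2 fold change (vertical axis) against intronic log2 fold change (horizontal axis) of the 6 integrin genes tested in introns, with bars of 1 SE in each direction and a dotted line where both are equal. Itgav in the Dicer pair lies at 2.21 and 4.10 with a wide intronic bar, and Itga3 in the Dgcr8 pair at -1.88 and -2.06, next to the line.

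Levels of different genes were compared as normalised exonic reads per kilobase of the exon length in the files, within a group. In DicerKO the order was Itgb1 (4413 reads per kilobase), Itga6 (1312), Itgav (579.6), Itga5 (435.0), Itgb5 (355.9), Itga3 (233.0) and Itgb3 (51.0). In TFC it was Itgb1 (3575), Itga6 (807.9), Itgb5 (298.6), Itga5 (195.4), Itga3 (152.5), Itgav (125.4) and Itgb3 (14.7). The outer places were the same, and Itgav stood next after Itga6 in DicerKO and next before Itgb3 in TFC. In Dgcr8KO the order was that of DicerKO, with Itgb1 at 3068, Itga6 at 989.5, Itgav at 513.6, Itga5 at 421.9, Itgb5 at 334.0, Itga3 at 167.0 and Itgb3 at 36.8 reads per kilobase. In V6.5 Itga3 (527.1) came after Itgb1 (4428) and Itga6 (933.9), before Itgav (286.0), Itga5 (231.4), Itgb5 (179.7) and Itgb3 (26.4). Itgb1, Itga6 and Itgb3 were set apart from their neighbours in every group, while the neighbours among Itgav, Itga5, Itgb5 and Itga3 overlapped between libraries in every group.

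Counted as a share of the reads per kilobase of the 4 alpha subunits, Itgav made up 22.7% ± 2.84 (SD, n = 3) in DicerKO and 9.85% ± 1.59 in TFC (SD, n = 3). In the Dgcr8 pair its share was 24.5% ± 8.21 in Dgcr8KO and 14.2% ± 5.50 in V6.5 (SD, n = 3 each), where library A held 15.1% in the knockout and 7.83% in wild type. The share of Itga3 was 8.05% ± 6.31 in Dgcr8KO and 27.0% ± 9.50 in V6.5 (SD, n = 3 each). That of Itga6, the largest of the 4 in each group, was 51.5% ± 11.3 in DicerKO and 63.7% ± 10.3 in TFC (SD, n = 3 each), and 47.2% ± 9.67 in Dgcr8KO and 46.8% ± 8.75 in V6.5 (SD, n = 3 each). Itgb1 held 87.0% to 92.8% of the reads per kilobase of the 3 beta subunits as a mean of each of the 4 groups. These shares rest on messenger RNA only, and dimers were not measured.

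**Figure D5:**
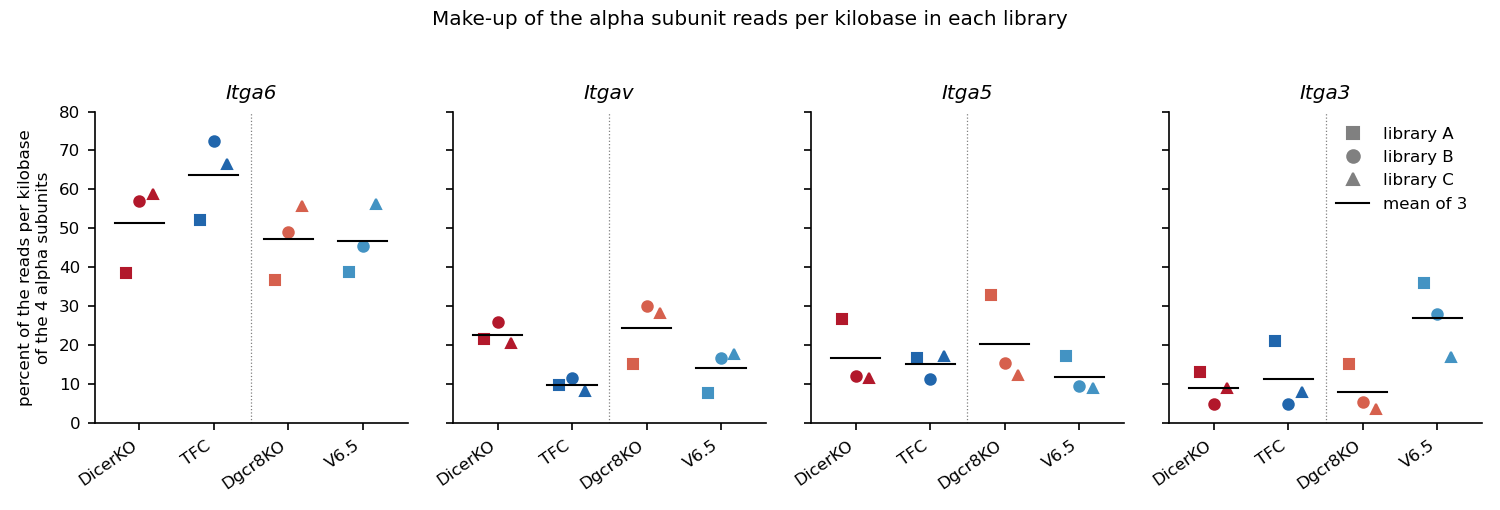
Share of each alpha subunit in the summed exonic reads per kilobase of Itga6, Itgav, Itga5 and Itga3 (vertical axis, percent), per library, with a line for the mean of 3. Itgav makes up 20.5 to 25.9% in DicerKO and 8.33 to 11.5% in TFC, and Itga3 3.55 to 15.3% in Dgcr8KO and 17.1 to 36.0% in V6.5.

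The spread within groups had a fixed form. Library A held the highest exonic level of its group in all 4 groups for Itga3, Itga5 and Itgb5, at 1.38 to 3.73, 1.35 to 2.37 and 1.74 to 4.10 times the mean of B and C. For Itgb1 and Itga6 library A held the lowest level in all 4 groups, at 0.28 to 0.58 and 0.66 to 0.87 times that mean. Itgav went both ways (0.39 to 1.14), lowest in both groups of the Dgcr8 pair, and Itgb3 was highest in A in 3 of 4 groups. Because A was chosen as the library least like the others over all genes, these ratios describe the set and are no test. The intronic libraries did not repeat this order in every group: Itga5 was lowest in intronic library A in DicerKO, Dgcr8KO and V6.5.

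Across the 12 exonic libraries, centred within each pair, Itga5 followed Itgb3 and Itgb5 (r = 0.78 and 0.77) and Itgav followed Itga6 (r = 0.84), whereas Itgb1 ran against Itgb5 (r = -0.86). These values include the library-A deviation that the members share. Among 12337 genes, the 2 whose pattern was most like that of Itgav were Hipk3, a protein kinase, and Jak1, a kinase of cytokine receptors (r = 0.97 each). For Itga3 they were Cd151, a tetraspanin known to bind Itga3 (r = 0.95), and Cldn4, a tight-junction protein (0.94). For Itga5 they were Mrc2, a collagen receptor (0.97), and Nav2 (0.96), for Itga6 Cast, the calpain inhibitor (0.98), and Rnf128 (0.96), and for Itgb1 Cbfb, a partner of Runx factors, and Tmed10, a cargo receptor of the secretory pathway (0.97 each). For Itgb3 they were Arid3b (0.95) and B4galt1, a galactosyltransferase (0.94), and for Itgb5 Pou5f1 and Zbtb45 (0.96 each). Each r was taken over 12 libraries and is a description.

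Among the 19 other integrin subunits, 13 passed the minimum mean of 10 reads in Dicer exons and limma called 0 of them (1 at an unadjusted p under 0.05, 0 by limma-voom; median log2 fold change -0.78, against -0.01 over all genes). Over all genes, 14.5% in Dicer exons and 16.2% in Dgcr8 exons had an unadjusted p under 0.05, against which such counts are to be read. In Dgcr8 exons 9 passed and 0 were called (3 at an unadjusted p under 0.05, 0 by limma-voom; median 1.12, against -0.08). Itga9, a tenascin-binding subunit that pairs with Itgb1, had 365.5, 571.4 and 377.1 reads in DicerKO, against 672.4, 958.0 and 622.8 in TFC, and 413.1, 497.2 and 438.9 in Dgcr8KO, against 198.1, 29.0 and 105.2 in V6.5. The groups did not overlap in either pair, and the differences had opposite signs, with a Dicer minus Dgcr8 difference of log2 fold changes of -3.17 (SE 0.81; limma adjusted p = 0.205 over all genes). In that test of the difference 0.154% of the genes were called. With the library-set term Itga9 passed in Dgcr8 exons (limma adjusted p = 0.018) and not in Dicer exons (0.127). Itgb4, the beta subunit that pairs with Itga6 in hemidesmosomes, had 935.5, 215.8 and 294.8 reads in DicerKO, against 210.2, 0 and 5.8 in TFC. In Dgcr8KO it had 806.1, 141.4 and 129.5, against 228.5, 39.9 and 51.0 in V6.5. The knockout was above in every library of the Dicer pair and library A was the highest in all 4 groups, and neither difference passed (limma adjusted p = 0.235 in Dicer and 0.452 in Dgcr8), whereas both did with the library-set term (0.0228 in Dicer and 0.0216 in Dgcr8).

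Lower subunits were given by their means. Itgal, the leukocyte subunit, averaged 102.5 reads in DicerKO and 235.3 in TFC, and 144.8 in Dgcr8KO and 39.9 in V6.5, while Itgb7, another leukocyte subunit, averaged 200.9 in DicerKO and 276.5 in TFC, and 151.1 in Dgcr8KO and 99.6 in V6.5. Itga1, a collagen-binding subunit, averaged 160.3 in DicerKO and 74.1 in TFC, and 39.8 in Dgcr8KO and 62.9 in V6.5. Itga8, a nephronectin receptor, averaged 61.2 in DicerKO and 51.6 in TFC, and 37.3 in Dgcr8KO and 134.2 in V6.5. Itgam, a myeloid subunit, averaged 17.1 in DicerKO and 259.9 in TFC, of which library C held 706.2. None of these passed the test. Means of Itgb8, which with Itgav releases active Tgf-β, were 1.28 in DicerKO and 46.6 in TFC, and 26.5 in Dgcr8KO and 69.3 in V6.5, and its libraries in TFC ran from 0 to 75.0. Itga2b, Itga4, Itga7, Itga10, Itgae, Itgb2 and Itgb6 stood at means of 0 to 55.6 reads in each of the 4 groups.

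Integrin adaptors and focal adhesion genes were more often higher than lower in DicerKO, and 1 passed the test. Of 34 tested, 23 had a higher and 11 a lower mean, with a median log2 fold change of 0.29 (against -0.01 over all genes). Of these, 1 was called up and 0 down, where 1.02% of all genes tested were called up. The 1 was Parva, parvin alpha, which binds the integrin-linked kinase: it had 2741.8, 2844.3 and 3274.7 reads in DicerKO, against 292.1, 40.0 and 431.5 in TFC, and rose by 4.09 on the log2 scale (SE 0.76; limma adjusted p = 0.0444, with a range of 0.00408 to 0.295 over the alternatives). It was called under 5 of 15 alternatives, was not called by limma-voom, and lost its call without DicerKO library A, B or C or TFC library C. Without DicerKO library B or C or TFC library C, no other gene of that fit was called either. Talin (Tln1), which switches integrins on, had 7345.0, 2726.1 and 2934.7 reads in DicerKO, against 2889.8, 727.8 and 1234.0 in TFC, and kindlin (Fermt2) 3973.1, 7048.2 and 6945.1 in DicerKO, against 2335.6, 3559.2 and 3661.8 in TFC. Neither passed (limma adjusted p = 0.243 for Tln1 and 0.225 for Fermt2), and both did with the library-set term (0.00155 and 0.00248). Ptk2, focal adhesion kinase, averaged 1410 reads in DicerKO and 1412 in TFC. In the fit with the library-set term 7 of the 34 passed upward and 0 downward, against 7.26% of all genes up.

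The same list in Dgcr8KO had 14 of 33 higher and 19 lower, with a median of -0.30 (against -0.08 over all genes). Of these, 0 were called up and 1 down, where 0.502% of all genes tested were called down. The 1 was Dab2, an endocytic adaptor that binds integrin tails and is also in the primitive endoderm list, which had 35.9, 7.8 and 20.8 reads in Dgcr8KO, against 299.6, 596.0 and 964.3 in V6.5, and fell by 4.86 on the log2 scale (SE 0.74; limma adjusted p = 0.0338). It was not called without Dgcr8KO library B or C or V6.5 library B or C, and neither was any other gene of that fit. Tln1 averaged 3528 reads in Dgcr8KO and 2659 in V6.5, Fermt2 4007 in Dgcr8KO and 2875 in V6.5, and Ptk2 976.9 in Dgcr8KO and 1204 in V6.5, with no call. In the fit with the library-set term 2 of the 33 passed upward and 8 downward, against 8.34% of all genes up and 8.61% down.

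Matrix ligands differed in a few genes. Of 13 RGD ligands tested in Dicer exons, limma called 0 (4 at an unadjusted p under 0.05, 0 by limma-voom; median 0.48), and 3 were called up and 0 down in the fit with the library-set term. In Dgcr8 exons 1 of 14 was called up and 0 down (median -0.34), where 0.745% of all genes tested were called up. The 1 was Nid1, the basement membrane linker nidogen. It had 6986.5, 7903.8 and 7767.5 reads in Dgcr8KO, against 2026.2, 1877.0 and 1970.0 in V6.5. Nid1 rose by 1.95 on the log2 scale (SE 0.23, limma adjusted p = 0.0224). The call was lost without Dgcr8KO library B or C or V6.5 library B or C, where 0 genes of the fit were called. Nid1 averaged 7024 reads in DicerKO and 3459 in TFC (log2 fold change 1.07, SE 0.28; limma adjusted p = 0.12, and 0.008 with the library-set term). Fibronectin (Fn1) averaged 17885 reads in DicerKO and 18116 in TFC as the authors' means, and had 14972.3, 11949.6 and 11013.3 in Dgcr8KO, against 11931.5, 30869.1 and 20986.8 in V6.5, which overlapped. Vitronectin (Vtn) was listed at 0 in both groups of the Dgcr8 pair and in all DicerKO libraries, and TFC library C alone held 420.0 reads.

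Of 8 laminin subunits tested in Dicer exons, 6 had a higher and 2 a lower mean (median log2 fold change 1.06, against -0.01 over all genes). Of 8 laminin subunits in Dgcr8 exons limma called 0 (2 at an unadjusted p under 0.05, 0 by limma-voom; median 0.02).

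Genes of latent Tgf-β and its binding proteins, which Itgav dimers engage, gave 0 calls by limma in either pair. In Dicer exons 3 of 7 were higher (0 at an unadjusted p under 0.05, 0 by limma-voom; median -0.48), and in Dgcr8 exons 1 of 7 (2 at an unadjusted p under 0.05, 0 by limma-voom; median -1.14). With the library-set term 0 were called in Dicer exons, and 0 up and 2 down in Dgcr8 exons, where 8.61% of all genes tested were called down. Tgfb1 had 26.8, 20.4 and 0 reads in DicerKO, against 238.1, 28.8 and 92.0 in TFC, and 26.7, 12.4 and 8.0 in Dgcr8KO, against 210.7, 65.3 and 51.0 in V6.5. The knockout was lower in every library of both pairs, although neither passed (limma adjusted p = 0.411 in Dicer and 0.197 in Dgcr8; with the library-set term 0.186 in Dicer and 0.0317 in Dgcr8). Ltbp1, which binds latent Tgf-β to the matrix, averaged 208.9 reads in DicerKO and 297.5 in TFC, and 222.9 in Dgcr8KO and 582.7 in V6.5. Of 13 tetraspanins and membrane partners limma called 0 in each pair (4 at an unadjusted p under 0.05 and 0 by limma-voom in each; with the library-set term 3 up and 1 down in Dicer, 2 up and 2 down in Dgcr8). Among them Cd151, the nearest neighbour of Itga3, had 1131.5, 507.3 and 380.5 reads in Dgcr8KO, against 1053.7, 1161.2 and 989.8 in V6.5.

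Marker lists differed between lines as well. In the Dicer pair the summed reads of 12 primitive endoderm markers were 17209 to 27982 in DicerKO, against 3520 to 6725 in TFC, and 2 of 9 tested rose, the matrix protein Sparc by 2.30 (SE 0.34) and the basement membrane collagen Col4a2 by 2.43 (SE 0.46; limma adjusted p = 0.0278 and 0.0452). Among all genes tested in Dicer exons, 1.02% were called higher. Sparc and Col4a2 lost the call without DicerKO library B or C or TFC library B or C, and Col4a2 also without DicerKO library A. Without DicerKO library B or C or TFC library C, 0 genes of that fit were called. Of the 9 tested, 5 had a higher and 4 a lower mean log2 value in DicerKO. Of the defining transcription factors, Sox17 was at 0 in all libraries of the pair, Gata4 had 175.1, 38.6 and 95.6 reads in DicerKO, against 82.4, 0 and 63.3 in TFC, Gata6 averaged 5.96 in DicerKO and 24.2 in TFC, and Sox7 averaged 8.38 in DicerKO and 146.4 in TFC. Trophectoderm markers summed to 3936 to 5994 reads in DicerKO and 1986 to 6016 in TFC, with 7 of 8 tested higher (median log2 fold change 1.69) and 0 called by limma (4 at an unadjusted p under 0.05, 0 by limma-voom). Mesoderm markers summed to 430.0 to 527.2 reads in DicerKO and 71.7 to 247.4 in TFC, and these sums did not overlap. Yet of 4 tested, 2 were higher and 2 lower (median log2 fold change -0.54, against -0.01 over all genes). limma called 0 of them (1 at an unadjusted p under 0.05, 0 by limma-voom). Fibroblast markers summed to 483.7 to 636.1 reads in DicerKO and 537.8 to 1174 in TFC, with 6 of 15 at 0 in all DicerKO libraries. Of 11 tested, 9 were lower and 2 higher in DicerKO (median log2 fold change -1.48), and limma called 0 (2 at an unadjusted p under 0.05, 0 by limma-voom). Among markers in the Dgcr8 pair, 3 of 12 fibroblast (Acta2, Col1a1 and Tagln), 2 of 11 trophectoderm (Krt8 and Krt18) and 2 of 5 mesoderm markers tested (T and Wnt3) fell in Dgcr8KO, where 0.502% of all genes tested were called lower. Krt8 averaged 314.0 reads in Dgcr8KO and 5087 in V6.5, Acta2, a smooth-muscle actin, 183.5 in Dgcr8KO and 2681 in V6.5, and Col1a1, a chain of fibrillar collagen, 48.0 in Dgcr8KO and 1375 in V6.5. The mesoderm factor T had 0 reads in every Dgcr8KO library, against 66, 2021.3 and 2242.6 in V6.5, and Wnt3 averaged 12.4 in Dgcr8KO and 652.1 in V6.5. All 7 (Krt8 also without V6.5 library A) lost the call without Dgcr8KO library B or C or V6.5 library B or C. Leaving out any of these B or C libraries left 0 genes called in Dgcr8 exons, so that loss is not particular to these markers. Pluripotency markers summed to 67340 to 94162 reads in Dgcr8KO, against 25186 to 79674 in V6.5. Of 8 tested, 7 were higher in Dgcr8KO (median log2 fold change 0.98, against -0.08 over all genes). limma called 0 (3 at an unadjusted p under 0.05, 0 by limma-voom), and 5 were called up with the library-set term. In introns 8 of 8 were higher (median 1.24) and 1 was called up. Neural markers summed to 3889 to 5716 reads in Dgcr8KO and 3771 to 7810 in V6.5, and to 3191 to 5309 in DicerKO and 2581 to 4702 in TFC, with 0 called by limma in either pair (3 and 2 at an unadjusted p under 0.05, 0 by limma-voom). With the library-set term 3 of 7 neural markers were called up in Dgcr8 exons and 0 in Dicer exons. In Dgcr8 exons that fit called down 7 of 12 fibroblast, 4 of 11 trophectoderm, 4 of 9 primitive endoderm and 3 of 5 mesoderm markers. Over all genes it called 8.34% up and 8.61% down. The part of these markers in the integrin differences was not tested.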

How the data were processed

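Exonic and intronic tables of each pair, 4 in all, hold a signal that the authors scaled by library size factors, with 1 mean column per genotype per the file headers. TopHat2 2.0.12, DESeq and mm10 are named in the submitters' processing notes, and the read-assignment rule was not stated there. Tests had been planned on single libraries. Each printed group mean is a whole-number combination of 3 steps, and solving for them gave each library's reads for 99.5% to 100.0% of genes, with 1 solution for each of the 7 integrin genes. Of recovered numbers, 60.2% to 80.4% were even, so precision is lower than the depth implies. Intronic letters B and C were matched to exonic ones weakly (r of 0.09 to 0.29).

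limma 3.58.1 (R 4.3.3, variance trend) was run on log2(value + 1) of genes with a mean of at least 10, within each pair, with 4 residual degrees of freedom. A fold change is on this scale and understates low genes. Tested on simulated data, it recovered 100% of 100 genes changed 4-fold in each of the 4 tables. Of 100 changed 2-fold it recovered 67% in Dicer exons, 48% in Dicer introns, 41% in Dgcr8 exons and 43% in Dgcr8 introns. The simulated libraries had 1 fixed setting of spread for every gene and no deviation of library A, and the lowest genes were not changed. Whether these shares hold at the spread between the real libraries was thus not tested. Itgb4, with a log2 fold change of 5.12 (SE 1.81) in Dicer exons, was not called (limma adjusted p = 0.235). A gene without a call is thus not shown to be unchanged. Libraries of a group may be technical replicates, since nothing names separate cultures. An exact permutation test of 3 against 3 cannot go below p = 0.1. The 7 genes and the 12 other gene lists were chosen with earlier results of these data known. Named genes of other lists are those called in an exonic fit, integrin subunits with a mean of at least 10, and Fn1, Vtn, Tln1, Fermt2, Ptk2, Tgfb1 and Ltbp1. A result on the laminin list is not reported here. Seed matches were counted in the longest 3′ UTR of GENCODE M21.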

Additional observations from a re-analysis of the deposited data

Results flagged for a closer look

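Among the genes of the lists, 3 markers had Dicer and Dgcr8 effects that differed past limma's adjusted p of 0.05 over 12337 exonic genes, of which 19 (0.154%) did. The Dicer minus Dgcr8 difference of log2 fold changes was 6.32 (SE 0.84; limma adjusted p = 0.00728) for the keratin Krt8, 7.03 (SE 1.06; 0.0185) for its partner keratin Krt18 and 5.29 (SE 0.69; 0.00728) for Tagln, an actin-binding protein of smooth muscle. Krt8 had 761.7, 493.0 and 698.5 reads in DicerKO, against 251.4, 125.1 and 158.2 in TFC, and 686.8, 132.1 and 123.1 in Dgcr8KO, against 5352.5, 6907.6 and 2999.7 in V6.5. In V6.5 these markers stood where Itga3 was high as well, and no test links them.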

How the results depend on the processing

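Of 26 log2 fold changes of the integrin genes by table, 20 kept their sign under every alternative. The 6 others (Itgb5 in Dicer exons, Itga3, Itga6 and Itgb5 in Dicer introns, Itga6 in Dgcr8 exons and introns) changed it in at least 1. By more than the spread between single libraries 0 moved, but leaving out 1 library cannot shift a value that far. The library-set term leaves the value unchanged by design, so this count is no sign of robustness. Itgav in Dicer introns ran from 2.50 to 5.35. Of 12 exonic minus intronic values, 6 kept their sign. Counts of genes called depended on the setting, and the cause was not tested. In Dicer exons 164 were called, with 35 without a variance trend, 61 with libraries B and C only, 1609 with the library-set term, 21 with limma-voom and 0 to 481 leaving out 1 library. In Dicer introns the 41 became 63 with pseudocount 4, 1 without a trend, 0 with B and C only (1163 at an unadjusted p under 0.05), 91 with the library-set term, 64 with limma-voom and 0 to 37 leaving out 1 library (0 without DicerKO B, with 739 at an unadjusted p under 0.05). In Dgcr8 exons the 159 became 2030 with B and C only, 2161 with the library-set term, 48 with limma-voom and 0 to 464 leaving out 1 library. In Dgcr8 introns the 163 became 245 with pseudocount 4, 85 with pseudocount 0.25, 107 without a trend, 451 with the library-set term and 26 to 176 leaving out 1 library. Leaving out 1 library gave 0 exonic calls for DicerKO B or C, TFC C, Dgcr8KO B or C, or V6.5 B or C (1155 to 1512 genes at an unadjusted p under 0.05). Exonic minus intronic counts were 0 throughout. No paired analysis was possible because the solved libraries could not be tied to the labels' replicate numbers; the library-set term blocks on sets found in the data, not on those numbers.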
